A study of Homo sapiens with 6 samples.

Results

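The nuclear RNAs NEAT1 and MALAT1 and the paraspeckle protein genes NONO, SFPQ, PSPC1 and RBM14 were followed through 4 h of exposure to SRPIN803, probe set by probe set. A probe set is a group of short array probes that together report 1 stretch of transcript. Members were all probe sets whose annotation named exactly 1 gene, that gene being among these 6. There were 28 of them among 54613 probe sets: 12 for MALAT1, 5 each for SFPQ and PSPC1, and 3 each for NONO and RBM14. NEAT1 had 0. All 9 probe sets that list NEAT1 also list MIR612, a microRNA gene that lies inside NEAT1 in the RefSeq table (GRCh38.p14). Their signal is therefore given under that joint annotation and is assigned to neither gene.

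Paraspeckles are bodies in the nucleus built around the long noncoding RNA NEAT1. NONO, SFPQ and PSPC1 form the DBHS family of RNA-binding proteins, which pair with each other and coat NEAT1, while RBM14 has low-complexity domains that help the bodies form. NEAT1 is made as a short polyadenylated form and a long form from the same start, and the long form is the scaffold. MALAT1 is transcribed next to NEAT1 and gathers at nuclear speckles, the neighbouring compartment where SR splicing factors are stored.

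The cells were ARPE-19, a human line of retinal pigment epithelial origin that is grown without limit in culture. In 1 group (3 arrays) they received the solvent alone, 0.1% DMSO. The other group (3 arrays) received SRPIN803 at 10 µM, a compound known to inhibit the SR protein kinase SRPK1 and protein kinase CK2. Both exposures lasted 4 h in medium with 10% fetal bovine serum, so the data cover 1 line, 1 dose and 1 time. The labels do not say whether replicates were separate cultures, and p-values measure only the spread between these arrays, which may be technical. Values are log2 expression, and changes are SRPIN803 minus DMSO on that scale.

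Over the series as a whole, array medians lay between 5.25 and 5.27. The authors' RMA normalization equalises arrays, so this does not show how even the samples were. SRPIN803 replicate 2 stood apart in its low values. On that array 154 probe sets (0.282%) lay at least 1 log2 unit below the mean of the other SRPIN803 arrays, against 0 to 2 on every other array measured the same way. Of the 12 MALAT1 probe sets, 5 were among those 154, and 0 of the other 16 members were. Results that rest on this array are given with and without it. Of 13 markers of retinal pigment epithelium 8 lay above the median level of all probe sets (5.26), among them MITF, OTX2 and RLBP1, and 5 lay below it, among them the visual cycle genes RPE65 and LRAT. The summed log2 level of the 13 was 73.6 to 73.8 in DMSO and 74.3 to 75.3 in SRPIN803, with 0 of 13 called by limma, and its part in the results was not tested. Of 5 epithelial markers 2 lay above that median, the keratin genes KRT8 and KRT18, and 3 below it, the keratin gene KRT19, CDH1 and EPCAM. Of 6 fibroblast and mesenchyme markers 4 lay above it, COL1A1, THY1, PDGFRB and VIM, while COL1A2 and COL3A1 lay below. Also above it were 1 of 4 endothelial, 1 of 3 measured immune and 2 of 4 measured photoreceptor and neuron markers.

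Of the 28 member probe sets 1 was called, an RBM14 probe set that was higher after SRPIN803. A call here means an adjusted p under 0.05 in limma, with Benjamini-Hochberg adjustment over all 54613 probe sets. Of all probe sets 2.22% were called, 1.19% higher and 1.03% lower, so the members' share is near the background. The groups did not overlap in 4 of the 28 members, against 21.5% of all probe sets. Member changes ran from -0.59 to 0.50 with a median of 0.0033. Beyond the members, 2 of the 9 probe sets with the joint annotation of MIR612 and NEAT1 were called, both higher. These are bulk RNA samples, in which fewer cells making a transcript and less of it per cell cannot be told apart.

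**Figure D1:**
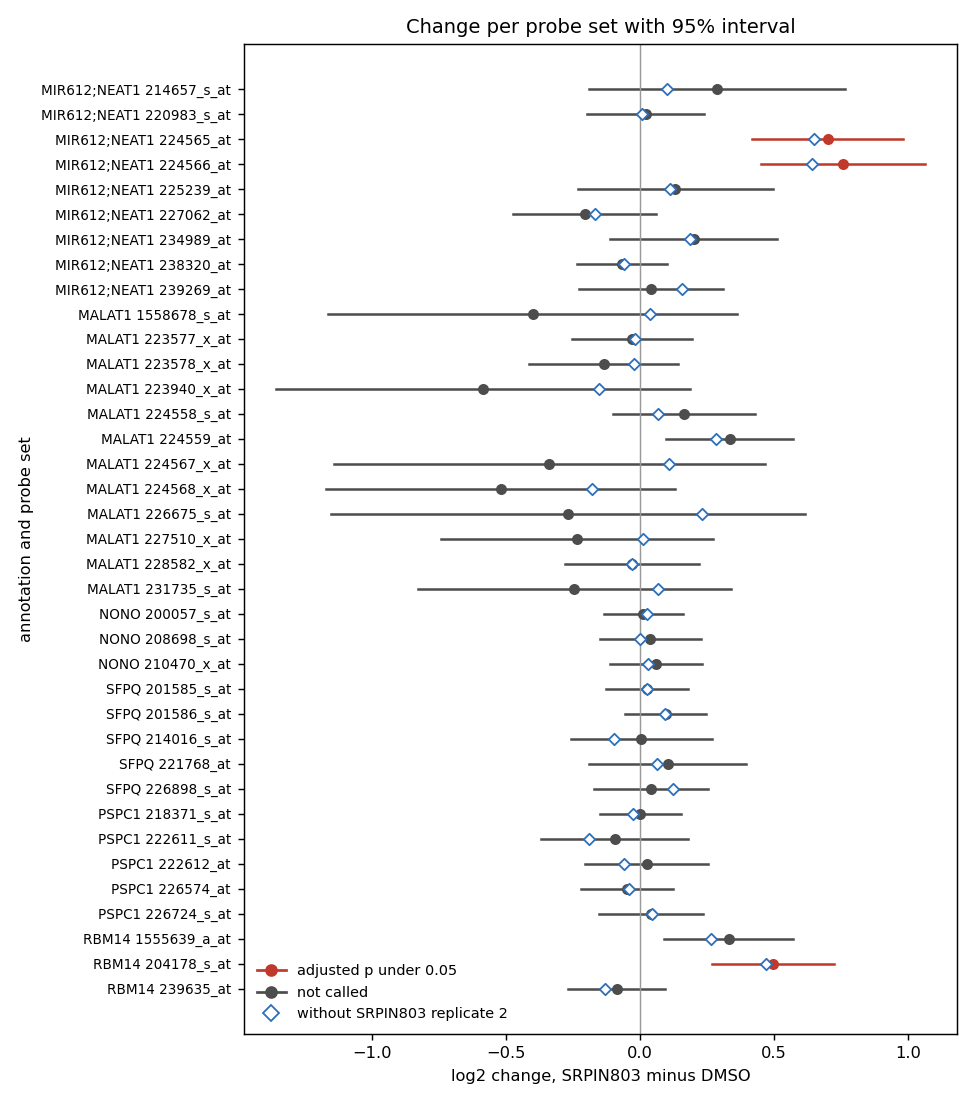
Log2 change (SRPIN803 minus DMSO, x axis) of each of the 28 member probe sets and the 9 with the joint annotation (y axis). Points are the fitted changes from 3 against 3 arrays, bars their 95% intervals, red those called, and open diamonds the change without SRPIN803 replicate 2. The 3 called probe sets all lie to the right of 0, and the widest intervals are those of MALAT1.

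Start regions were found for 4 of the 6 genes in the RefSeq promoter table (GRCh38.p14), with 2 starts for MALAT1, and none for NEAT1 or SFPQ. The 250 bases before the start are shown for RBM14, the called member, for NONO, which was not called, and for the downstream start of MALAT1. Capitals mark 3 promoter motifs, each searched on both strands: CCAAT, the letters of the CCAAT box, then TATAAA, a form of the TATA box, then GGGCGG, the core of the GC box. Matches do not overlap here.
RBM14, chr11:66616380-66616629, plus strand: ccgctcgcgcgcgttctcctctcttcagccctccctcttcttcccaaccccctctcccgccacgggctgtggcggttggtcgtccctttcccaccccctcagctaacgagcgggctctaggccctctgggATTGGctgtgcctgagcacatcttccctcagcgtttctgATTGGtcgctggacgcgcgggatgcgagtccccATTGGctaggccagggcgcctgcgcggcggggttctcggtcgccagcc
NONO, chrX:71283385-71283634, plus strand: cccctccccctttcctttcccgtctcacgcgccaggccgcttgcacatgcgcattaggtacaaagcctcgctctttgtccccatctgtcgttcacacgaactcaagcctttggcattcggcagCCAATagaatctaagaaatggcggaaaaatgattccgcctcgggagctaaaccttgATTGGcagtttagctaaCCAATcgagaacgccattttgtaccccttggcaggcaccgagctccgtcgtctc
MALAT1, chr11:65498795-65499044, plus strand: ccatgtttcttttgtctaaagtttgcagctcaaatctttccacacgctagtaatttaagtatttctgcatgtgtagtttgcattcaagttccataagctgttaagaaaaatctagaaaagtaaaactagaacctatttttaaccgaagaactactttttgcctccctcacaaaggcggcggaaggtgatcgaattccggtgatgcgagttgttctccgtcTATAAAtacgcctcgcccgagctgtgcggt
RBM14 and NONO each held 3 CCAAT matches, a motif present in 32.0% of 35116 windows of that length. The downstream MALAT1 window held 1 TATAAA match, a motif in 10.7% of windows. GGGCGG matched 5 times before the upstream MALAT1 start and 0 times in the windows of the other 3 genes and of the downstream MALAT1 start, against 42.6% of all windows. The PSPC1 window held none of the 3 motifs. A match is a description of letters, not a binding site.

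The brightest MALAT1 probe set, 224567_x_at, read 12.017, 12.493 and 12.180 in DMSO and 12.176, 11.001 and 12.499 in SRPIN803 (replicates 1, 2 and 3). SRPIN803 replicate 2 was the low value, and the other SRPIN803 arrays lay within the range of DMSO or just above it. The means were 12.23 ± 0.24 and 11.89 ± 0.79 (SD, n = 3 each), and the change was -0.34 ± 0.35 (SE, limma adjusted p = 0.726). Without SRPIN803 replicate 2 it was 0.11 ± 0.16.

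That pattern recurred in 7 of the 12 MALAT1 probe sets. In these, SRPIN803 replicate 2 minus the mean of the other SRPIN803 arrays was -1.50 to -0.74. The largest gap was in 226675_s_at, which read 10.47, 10.79 and 10.46 in DMSO and 10.60, 9.30 and 11.01 in SRPIN803. Replicate 3 was the highest of all 6 arrays there and replicate 2 the lowest. The probe set 223940_x_at had the lowest change of any member, -0.59 ± 0.33, with an adjusted p of 0.469, and -0.15 ± 0.14 without that array. Over these 7 probe sets the changes ran from -0.59 to -0.23 with all arrays, and from -0.18 to 0.23 without SRPIN803 replicate 2. Leaving that array out turned the sign of 5 of them to above 0.

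In the remaining 5 MALAT1 probe sets SRPIN803 replicate 2 lay less than 0.5 below the other SRPIN803 arrays or above them, with differences of -0.34 to 0.29. The lowest of these was 223578_x_at, where it was also the lowest of all 6 arrays and the change was -0.13 with it and -0.021 without it. The probe set 224559_at read 6.86, 6.77 and 7.08 in DMSO and 7.11, 7.34 and 7.27 in SRPIN803. Every SRPIN803 value lay above every DMSO value, replicate 2 being the highest. Its change was 0.34 ± 0.10 and did not pass (adjusted p = 0.158). The probe set 224558_s_at read 9.49, 9.73 and 9.56 in DMSO against 9.56, 9.95 and 9.76, with overlapping groups and a change of 0.16 ± 0.11 (adjusted p = 0.574). Thus on the same array some MALAT1 probe sets were at their lowest and others at their highest.

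**Figure D2:**
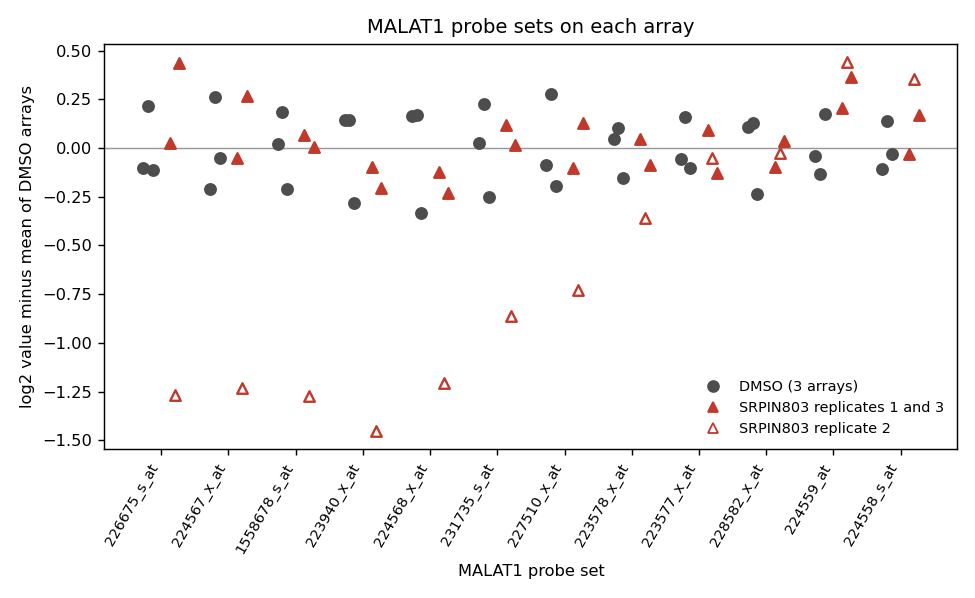
Log2 value of each MALAT1 probe set on each array minus the mean of its 3 DMSO arrays (y axis), ordered by how far SRPIN803 replicate 2 lies from the other SRPIN803 arrays (x axis). Circles are DMSO, filled triangles SRPIN803 replicates 1 and 3, open triangles SRPIN803 replicate 2, which lies far below the rest in 7 probe sets and highest in 2.

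No MALAT1 probe set was called by limma (0 of 12, with 1 at an unadjusted p under 0.05, 224559_at). By brightest probe set, 3378 of all 19775 genes had an unadjusted p under 0.05. Without SRPIN803 replicate 2 the count of MALAT1 calls was also 0. The 95% intervals of the 12 changes reached from -1.36 to 0.61. Whether MALAT1 probe sets moved apart was tested with limma's diffSplice. The test used the 5 of them that lie above the median level and do not end in _x_at. Those ending in _s_at were kept. The gene did not pass (Simes test, adjusted p = 0.798), where 3.36% of 5535 genes did and 1.9% of 14401 single probe sets stood apart from the others of their gene. RNA and labelling quality can be read from how far actin probes at the 5' end of the transcript lie from those at its 3' end. That log2 difference was -1.46 on SRPIN803 replicate 2, between the lowest and highest of the other arrays (-2.16 and -1.41). The part of RNA quality in the low MALAT1 values was not tested.

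By the root mean square difference of centred profiles over the 6 arrays, the genes most like MALAT1's 224567_x_at were CDC42BPA (0.172), ANKRD36B (0.176), GLG1 (0.177) and RSF1 (0.197), among 12626 genes above the median level. The median difference was 0.523. In all 4 SRPIN803 replicate 2 was low, differing from the mean of the other SRPIN803 arrays by -1.24 to -0.86. That follows from how they were picked, since 224567_x_at is itself low on that array. None of the 4 was called. CDC42BPA, a kinase gene of the actin cytoskeleton, was at -0.52 ± 0.30 with all arrays and at -0.10 ± 0.08 without that array.

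Among the 9 probe sets with the joint annotation of MIR612 and NEAT1, 2 rose. The probe set 224565_at read 10.82, 10.86 and 10.72 in DMSO and 11.22, 11.60 and 11.67 in SRPIN803. All SRPIN803 values lay above all DMSO values, replicate 1 being the lowest of them. The means were 10.80 ± 0.07 and 11.50 ± 0.24 (SD, n = 3 each), a rise of 1.62-fold (95% interval 1.34 to 1.97, log2 0.70 ± 0.12, limma adjusted p = 0.0313). The probe set 224566_at read 9.62, 9.57 and 9.61 in DMSO and 10.05, 10.59 and 10.44 in SRPIN803. Again the groups did not overlap, and the rise was 1.69-fold (1.37 to 2.09, log2 0.76 ± 0.13, adjusted p = 0.0322). SRPIN803 replicate 2 lay between the other SRPIN803 arrays in 224565_at and was the highest in 224566_at.

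The other 7 probe sets of this annotation were not called, with changes from -0.20 to 0.29. The probe set 234989_at read 7.74, 8.11 and 7.79 in DMSO and 7.86, 8.10 and 8.27 in SRPIN803, and 225239_at read 7.72, 8.08 and 7.82 against 7.69, 8.05 and 8.28. The groups overlapped in both, with changes of 0.20 ± 0.13 and 0.13 ± 0.16. The probe set 227062_at, at 5.80 over all arrays, had the lowest change, -0.20 ± 0.11. Where along NEAT1 each probe set lies, and so whether it reads the short form or only the long form, was not analysed here. With probe sets grouped by their whole annotation, a grouping chosen after the data were seen, the test for moving apart did not pass (Simes test, adjusted p = 0.0830, over 5703 groups, of which 3.38% passed). The change of 224566_at exceeded that of the others by 0.58 (adjusted p = 0.0614).

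The calls of 224565_at and 224566_at depended on which arrays were used. Both were lost without any 1 DMSO replicate and without SRPIN803 replicate 2 or 3 (limma adjusted p up to 0.130). In those fits the changes stayed between 0.61 and 0.77. Both calls were kept without SRPIN803 replicate 1, with larger changes of 0.84 and 0.91 (adjusted p = 0.0152 and 0.0120).

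**Figure D3:**
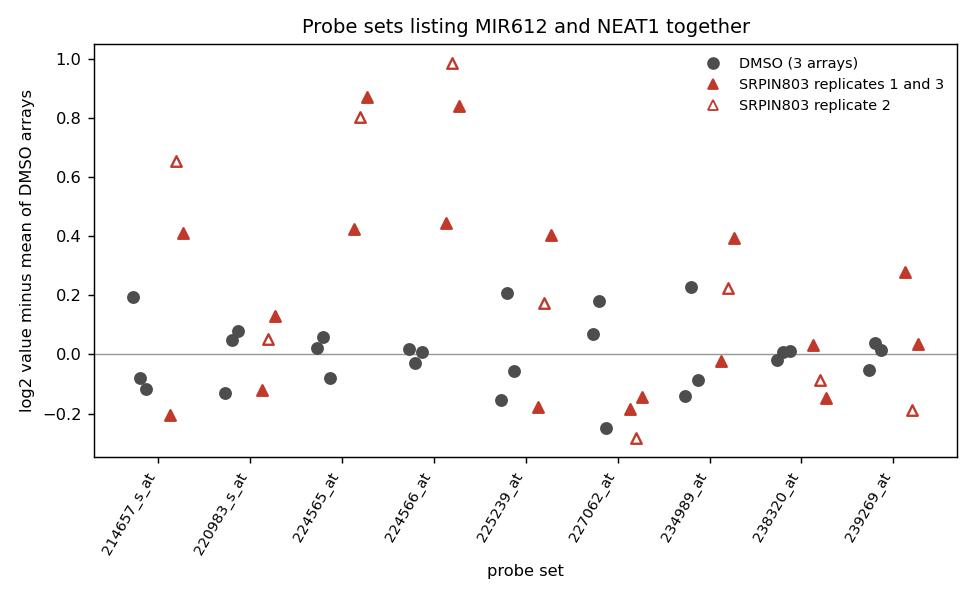
Log2 value on each array minus the mean of the 3 DMSO arrays (y axis) for the 9 probe sets annotated to both MIR612 and NEAT1 (x axis). Circles are DMSO, filled triangles SRPIN803 replicates 1 and 3, open triangles SRPIN803 replicate 2. In 224565_at and 224566_at all SRPIN803 arrays lie above all DMSO arrays.

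Transcripts of the DBHS proteins showed no change past the threshold: 0 of 13 probe sets of NONO, SFPQ and PSPC1 were called by limma, and 0 had an unadjusted p under 0.05. By brightest probe set, 3378 of all 19775 genes had such a p. Changes of the 13 probe sets lay between -0.09 and 0.10, and all 13 of the 95% intervals lay between -0.37 and 0.40. All 13 were above the median level of all probe sets. NONO, which pairs with SFPQ or PSPC1 in paraspeckles, read 12.92, 12.93 and 12.92 in DMSO and 12.98, 12.91 and 12.92 in SRPIN803 on its brightest probe set, 200057_s_at. These 6 values are nearly level, and the change was 0.01 ± 0.06 (interval -0.14 to 0.16). The other NONO probe sets were at 0.04 ± 0.08 (208698_s_at) and 0.06 ± 0.07 (210470_x_at).

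SFPQ, the splicing factor needed for paraspeckles to hold together, read 12.22, 12.28 and 12.19 in DMSO and 12.34, 12.33 and 12.30 in SRPIN803 on 201586_s_at, its brightest probe set. The groups did not overlap, but by little: the change was 0.10 ± 0.07 (interval -0.06 to 0.25, adjusted p = 0.563). On 201585_s_at the change was 0.03 ± 0.07, with overlapping groups. The largest SE, 0.13, was on 221768_at, which read 8.85, 9.25 and 8.98 in DMSO and 8.94, 9.21 and 9.25 in SRPIN803. All 5 SFPQ changes were above 0 with all arrays, and that of 214016_s_at, 0.0053 ± 0.11, was below 0 with median centring (-0.0067) or array weights (-0.0012).

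PSPC1, a DBHS protein long used as a marker of the bodies, read 9.63, 9.70 and 9.53 in DMSO and 9.63, 9.56 and 9.53 in SRPIN803 on 226574_at. The groups overlapped, with a change of -0.05 ± 0.07. On 218371_s_at the values were 8.27, 8.29 and 8.26 against 8.26, 8.33 and 8.23, a change of 0.0012 ± 0.065 (interval -0.15 to 0.15). The lowest PSPC1 change, -0.09 ± 0.12 on 222611_s_at, had an adjusted p of 0.786.

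RBM14 was the member gene with a probe set that rose. This coactivator, also known as CoAA, carries RNA recognition motifs and a low-complexity domain. Its brightest probe set, 204178_s_at, read 8.39, 8.23 and 8.24 in DMSO and 8.91, 8.83 and 8.60 in SRPIN803. Every SRPIN803 array lay above every DMSO array, replicate 3 being the lowest of the treated arrays. The means were 8.29 ± 0.09 and 8.78 ± 0.16 (SD, n = 3 each), a rise of 1.41-fold (95% interval 1.20 to 1.65, log2 0.50 ± 0.10, limma adjusted p = 0.0485). Its call lies just inside the threshold and was lost without any 1 array other than SRPIN803 replicate 3 (adjusted p 0.103 to 0.176), with changes of 0.43 to 0.55. Without SRPIN803 replicate 3 it was kept, at 0.59 (adjusted p = 0.0495). It was also lost under quantile normalization again, cyclic loess, robust eBayes and an actin covariate (adjusted p 0.0512, 0.0544, 0.0534 and 0.0621).

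The remaining RBM14 probe sets were not called. The dim 1555639_a_at read 3.88, 3.82 and 3.68 in DMSO and 4.19, 4.25 and 3.93 in SRPIN803, again without overlap, and its change of 0.33 ± 0.10 did not pass (adjusted p = 0.169). The probe set 239635_at, at 5.32 just above the median level, read 5.30, 5.43 and 5.37 against 5.29, 5.37 and 5.18, with a change of -0.09 ± 0.08. In the diffSplice test 204178_s_at exceeded 239635_at by 0.58, and RBM14 was among the genes whose probe sets moved apart (Simes test, adjusted p = 0.0223, where 3.36% of genes passed). That call was lost without DMSO replicate 1, 2 or 3 (0.0548, 0.147 and 0.127) and with dim probe sets included (0.0535). A further 4 probe sets, which list the RBM14-RBM4 readthrough gene with RBM4, are not members and were not used.

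**Figure D4:**
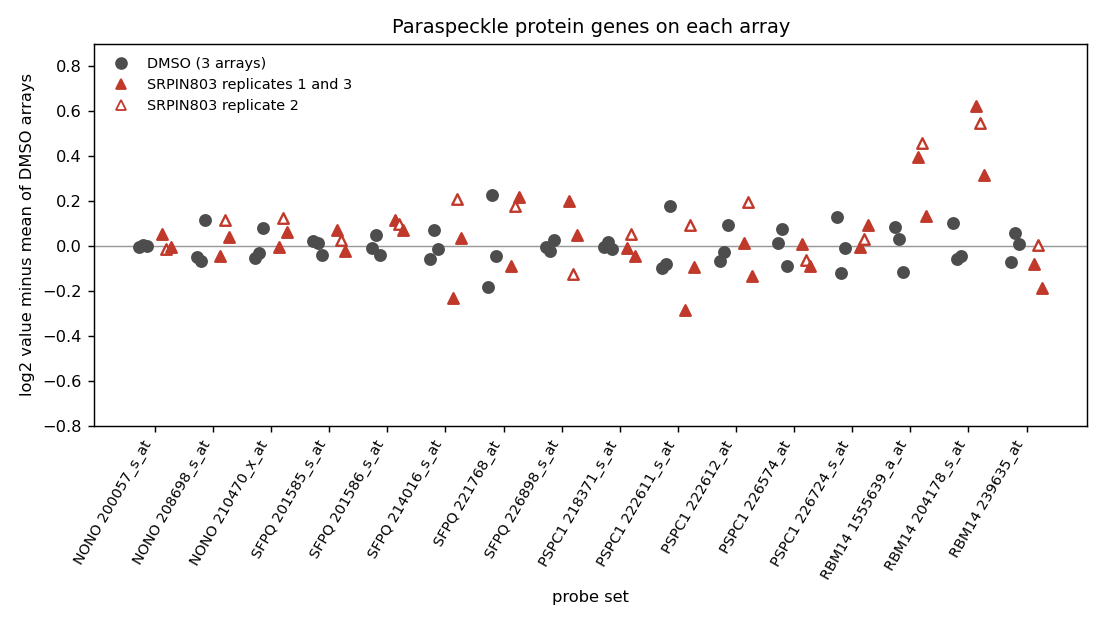
Log2 value on each array minus the mean of the 3 DMSO arrays (y axis) for the 16 probe sets of NONO, SFPQ, PSPC1 and RBM14 (x axis). Circles are DMSO, filled triangles SRPIN803 replicates 1 and 3, open triangles SRPIN803 replicate 2. RBM14 204178_s_at and 1555639_a_at are the probe sets whose SRPIN803 arrays stand furthest above the DMSO arrays.

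Genes that act beside these members were read from lists, each gene by its brightest probe set in the same fit. In that reading 2.92% of 19775 genes were called, 1.71% higher and 1.21% lower, with a median change of 0.02. An unadjusted limma p under 0.05 was reached by 3378 of the 19775. In the lists, in the order below, the counts were 11 of 36, 5 of 20, 12 of 22 and 6 of 13. Then came 1 of 13, 5 of 18, 1 of 6 and 4 of 15. Of 36 measured genes for other paraspeckle proteins 2 rose and 0 fell, with a median of -0.02. The counts were 2 higher and 2 lower with only the brightest probe sets fitted, 3 and 2 with an intensity trend, and 1 and 1 with the mean of each gene's probe sets. ZC3H6, a zinc finger gene, read 6.46, 6.67 and 6.54 in DMSO and 7.08, 7.15 and 7.48 in SRPIN803, a rise of 0.68 ± 0.12 (adjusted p = 0.0293). Its other, dim probe set was at 0.16 ± 0.14, and the mean of both gave 0.42 without a call (adjusted p = 0.0532). RBM4B, an RNA-binding protein gene, rose by 0.43 ± 0.07 (adjusted p = 0.0239). ZC3H6 lost its call without any 1 array other than SRPIN803 replicate 1 and RBM4B without any 1 array (adjusted p up to 0.121 and 0.115).

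Of 20 measured genes that form the ends of NEAT1 and MALAT1 or of polyadenylated RNAs, 1 rose and 1 fell, with a median of 0.03. CSTF3, a subunit of the cleavage stimulation factor, read 10.01, 9.99 and 9.94 in DMSO and 10.60, 10.59 and 10.51 in SRPIN803, a rise of 0.58 ± 0.07 (adjusted p = 0.00871) that lost its call only without DMSO replicate 3 (0.0552). Its 2 other probe sets were at 0.13 ± 0.07 and 0.13 ± 0.08 and were not called. RPP40, a subunit of the RNase P complex that cuts the 3' ends of MALAT1 and long NEAT1, read 9.48, 9.44 and 9.53 in DMSO and 8.95, 8.96 and 8.86 in SRPIN803. It fell by 0.56 on the log2 scale, with an SE of 0.07 (adjusted p = 0.0110), and lost the call without any 1 DMSO replicate (0.0520 to 0.0621). The groups were well apart in the brightest probe set of each gene. In CSTF3 229666_s_at they overlapped, and in 229665_at the highest DMSO value was 7.34 and the lowest SRPIN803 value 7.35.

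Nuclear speckle proteins, the company of MALAT1, had the lowest median of the 8 lists, -0.18 (-0.12 without SRPIN803 replicate 2). Of 22 measured genes 2 fell and 0 rose. SRSF7, an SR splicing factor, was at -0.39 ± 0.07 (adjusted p = 0.0348) and RBM25, a splicing regulator, at -0.37 ± 0.07 (adjusted p = 0.0480). On these brightest probe sets both lost the call without any 1 array (up to 0.128 and 0.164). SRSF7 had 2 of 4 probe sets called lower and RBM25 3 of 7, the lowest being 1557081_at of RBM25 at -0.69 ± 0.13. Without SRPIN803 replicate 2 that probe set was at -0.53 ± 0.08 and still called (limma adjusted p = 0.0387). RBM25 212030_at and 212027_at were also called without that array (0.0434 and 0.0486). The SRSF7 probe set 211439_at was at 0.18 ± 0.10, and with the mean of its probe sets SRSF7 was at -0.25 and not called (adjusted p = 0.0910). With only the brightest probe set of each gene in the fit, 6 genes were lower and 1 higher, and with an intensity trend 8 and 1. THRAP3, an RNA-processing factor of the speckles, was at -0.61 ± 0.41 and not called, and at -0.05 without SRPIN803 replicate 2. SRRM2 had the lowest change of the list, -0.77 ± 0.23 and not called, and was at -0.48 ± 0.12 without that array. The highest was that of PNISR, 0.38 ± 0.09 and not called. THRAP3, SRRM2 and PNISR were chosen after their values were seen.

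Of 13 measured proteins of Cajal bodies, gems and PML bodies 3 fell and 0 rose, with a median of -0.11. DAXX, a histone chaperone of PML bodies, was at -0.43 ± 0.08 (adjusted p = 0.0324), NOLC1, a nucleolar and Cajal body protein, at -0.36 ± 0.07 (0.0379) and GEMIN5, which binds small nuclear RNAs for the SMN complex, at -0.35 ± 0.07 (0.0493). NOLC1 and GEMIN5 lost the call without any 1 array (adjusted p up to 0.158 and 0.179), and DAXX without any but SRPIN803 replicate 2 (up to 0.132). Of 13 measured partners of the DBHS proteins 1 rose and 0 fell. PER2, a clock repressor whose complex binds NONO, read 5.31, 5.14 and 5.20 in DMSO and 6.21, 5.90 and 5.93 in SRPIN803, a rise of 0.79 ± 0.10 (adjusted p = 0.0115). It lost the call without DMSO replicate 2 or 3 (0.0638 and 0.0621), and its other, dim probe set was at 0.08 ± 0.10. HEXIM1, which joins DBHS proteins in a complex on NEAT1, was at -0.04 ± 0.06, and was named outside the rule for list genes.

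Of 18 measured nuclear RNA decay genes 1 rose and 0 fell, ZFC3H1, a subunit of the exosome-targeting connection for polyadenylated nuclear RNA, at 0.56 ± 0.09 (adjusted p = 0.0251). The counts were 1 higher and 1 lower with only the brightest probe sets fitted, and 2 and 1 with the trend. ZFC3H1 lost the call without any 1 array other than SRPIN803 replicate 1 (up to 0.114). Its other, dim probe set, 1553736_at, at 2.52 over all arrays, was at -0.27 ± 0.10 and not called. With the mean of its probe sets the change of ZFC3H1 was 0.14 (adjusted p = 0.301). Of 6 measured transcription factors reported to act on NEAT1 0 were called by limma (1 at an unadjusted p under 0.05). BRCA1 was at 0.54 ± 0.13 (adjusted p = 0.0750), called with the trend (0.0190) and with only the brightest probe sets fitted (0.0439), and STAT3 at 0.08 ± 0.09. Of 15 measured protein-coding neighbours of NEAT1 and MALAT1 on chromosome 11 0 were called, with a median of -0.03. The unadjusted limma p was under 0.05 in 4 of them, against 3378 of all 19775 genes. RELA was at -0.24 ± 0.08 (adjusted p = 0.172) and FRMD8 at -0.18 ± 0.06 (0.235), a direction that turned with the mean of its probe sets (0.025).

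**Figure D5:**
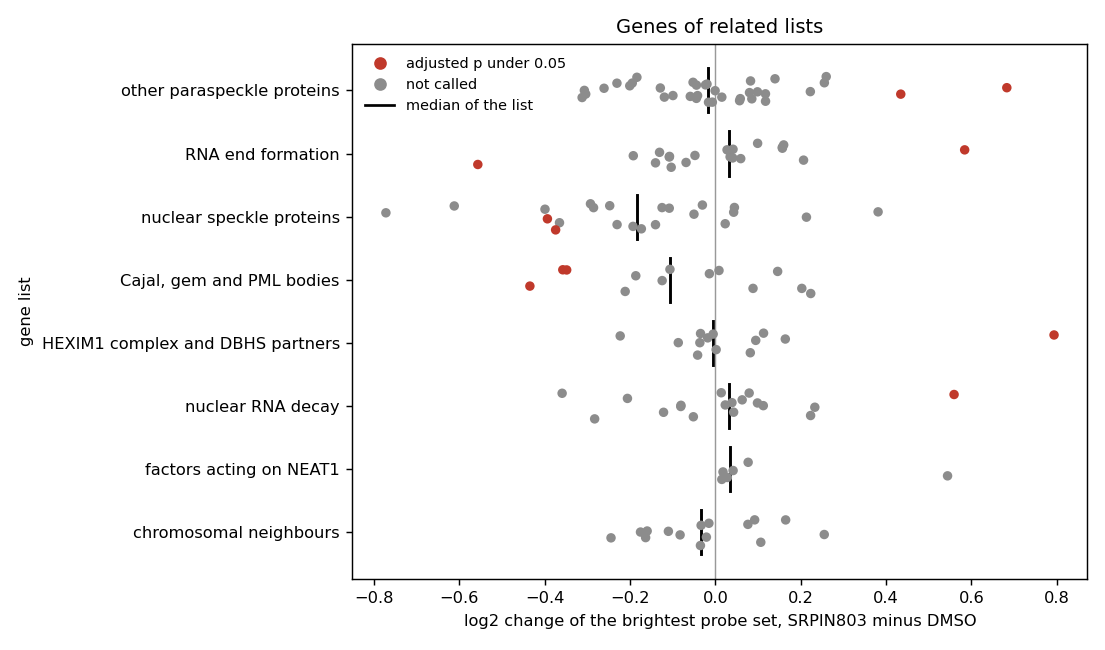
Log2 change of the brightest probe set (SRPIN803 minus DMSO, x axis) of each gene in 8 lists (y axis, 1 row a list, spread vertically so that points do not overlap). Red points are genes called, grey points genes not called, and black bars the medians of the lists. The nuclear speckle list has the lowest median, -0.18, and the highest called gene is PER2 at 0.79.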

How the data were processed

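Total RNA of 6 ARPE-19 samples was hybridised to Affymetrix 3' arrays after labelling of 100 ng. The deposited log2 values, 1 per probe set and array, were made by the authors with RMA, per the submitters' processing notes. The sources used here do not name its version or settings. RMA equalises arrays, which hides a change in total RNA, and compresses changes of dim probe sets. Values were used as deposited, without 62 control probe sets. Gene names are those of the platform annotation, where 41091 probe sets name 1 gene, 1801 several and 11721 are unnamed here. Levels of different probe sets are not comparable. Array number, 3 per group, limits the precision.

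Each probe set was fitted by group in R 4.3.3 with lmFit and eBayes of limma 3.58.1, with 4 residual degrees of freedom, two-sided tests and Benjamini-Hochberg adjustment. Errors beside changes are standard errors. diffSplice used probe sets that name 1 gene, lie at or above the median level of 5.26 and do not end in _x_at, in genes with at least 2. The text names all members, up to 4 called genes of each list by size of change or up to 2 by p where none was called, and the 4 genes most like MALAT1. Members and lists were chosen with earlier results of these data known. List genes with no probe set of their own were not analysed.

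Data were simulated from the real mean levels and from limma's spreads, which are shrunk toward a common value, each value drawn independently. A deviation shared by many probe sets of 1 array, as on SRPIN803 replicate 2, was not simulated. The rates that follow may therefore not hold for the real arrays. With 200 of 54613 probe sets altered, the probe set test found 51% of true log2 changes of 0.5 and 98% of true changes of 1. Of its calls 3.25% were false. With 1 probe set altered in each of 200 genes among 5535, diffSplice recovered 74% of genes altered by 0.5 and 99% of those altered by 1. Of its calls 9.42% were false, and it made 6 calls when nothing was changed. Alternatives covered arrays left out, replicate block, normalization, variance model, array weights, filters, thresholds and an actin covariate. Plots used matplotlib 3.10.9.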

Additional observations from a re-analysis of the deposited data

How the results depend on the processing

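Over all probe sets, 1214 were called, 215 to 716 with 1 array left out, 304 with the replicate block, 2731 with an intensity trend, 2667 at or above the median level, and 206 and 2492 at adjusted p under 0.01 and 0.1. The member count of 1 was 0 to 1 with 1 array left out. It was 0 with the replicate block, quantile normalization again, cyclic loess, robust eBayes, the actin covariate and adjusted p under 0.01, and 3 with the probe sets listing MIR612 and NEAT1 counted in, an alternative chosen after seeing the data. List genes called numbered 11, 0 to 5 with 1 array left out, 2 with the replicate block, 24 with the trend and 20 with only the brightest probe sets fitted. Genes moving apart numbered 186, 46 to 289 with 1 array left out and 122 with the block. Fewer arrays or added terms leave fewer degrees of freedom, and otherwise the cause was not tested. The replicate numbers were not taken to pair samples, because nothing says that they do. Same-numbered arrays deviated together with r of 0.14, -0.07 and 0.07. The highest r of those DMSO arrays with a SRPIN803 array of another number was 0.03, 0.12 and 0.05. With 3 arrays per group these values cannot settle whether samples were paired. With the replicate block RBM14 204178_s_at had an adjusted p of 0.0779, 224565_at 0.0839 and 224566_at 0.0820.

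With array weights the change was 0.0089 for MALAT1 228582_x_at, -0.0012 for SFPQ 214016_s_at, -0.0025 for PSPC1 218371_s_at and -0.0073 for PSPC1 222612_at. With median centring it was -0.0067 for SFPQ 214016_s_at and -0.011 for PSPC1 218371_s_at, which was at -0.0026 with cyclic loess. FRMD8 was at 0.025 with the mean of its probe sets. Leaving out 1 array in turn gave changes of MALAT1 1558678_s_at -0.63 to 0.037, MALAT1 223577_x_at -0.089 to 0.051, MALAT1 224567_x_at -0.64 to 0.11, MALAT1 226675_s_at -0.62 to 0.23, MALAT1 227510_x_at -0.42 to 0.013, MALAT1 228582_x_at -0.15 to 0.036, MALAT1 231735_s_at -0.43 to 0.066, NONO 200057_s_at -0.0094 to 0.025, NONO 208698_s_at -0.00017 to 0.10, SFPQ 214016_s_at -0.10 to 0.12, SFPQ 226898_s_at -0.037 to 0.13, PSPC1 218371_s_at -0.025 to 0.023, PSPC1 222611_s_at -0.19 to 0.0013, PSPC1 222612_at -0.061 to 0.11, PSPC1 226724_s_at -0.018 to 0.11, MIR612 and NEAT1 220983_s_at -0.044 to 0.091, MIR612 and NEAT1 225239_at -0.0027 to 0.29, MIR612 and NEAT1 239269_at -0.077 to 0.16.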
